A study of Mus musculus with 11 samples.

Results

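The mGluR6 cascade of ON bipolar cells was described here through 10 genes: Grm6, Trpm1, Nyx, Gpr179, Gnao1, Gng13, Pcp2, Prkca, Rgs7 and Rgs11. Their rows were found by matching Ensembl identifiers to gene symbols, and all 10 were matched among the 37991 rows of the deposited count table. All 10 also passed the filter on low counts that left 17099 genes for testing. RNA had been sequenced from the right retina of 11 mice at postnatal day 24, all on a C57Bl/6J background. Wild-type mice received saline (WT saline, n = 2) or the LSD1 inhibitor GSK2879552 (WT GSK, n = 3). Mice of genotype rd10 B6.CXB1-Pde6brd10/Jrd10, whose mutant Pde6b causes rods to degenerate, likewise received saline (rd10 saline, n = 3) or GSK2879552 (rd10 GSK, n = 3). Injections were intraperitoneal and daily from day 9 to day 24 in all 4 groups, with GSK2879552 given at 4.2 mg/kg, so the drug was given to the whole animal and not to the retina alone. LSD1, encoded by Kdm1a, is a histone demethylase.

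ON bipolar cells receive glutamate from rods and cones and respond to light with the opposite sign to the photoreceptor. In darkness glutamate activates the metabotropic receptor mGluR6, which through the G protein Go closes the cation channel TRPM1. In light glutamate release falls, Go is switched off with the help of RGS proteins, TRPM1 opens and the cell depolarises. Loss of mGluR6, TRPM1, nyctalopin or GPR179 removes the electroretinogram b-wave and causes complete congenital stationary night blindness. Rod bipolar cells, which carry the rod signal, are the most numerous ON bipolar type of the mouse and are recognised by protein kinase C alpha and PCP2.

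The receptor gene Grm6 lies on the plus strand of chromosome 11 (GRCm38, bases 50850685 to 50866208). The channel gene Trpm1 lies on the plus strand of chromosome 7 (64153835 to 64269775). Nyx, which encodes the leucine-rich repeat protein nyctalopin that holds TRPM1 at the dendritic tip, is X-linked (X, 13466110 to 13489313, plus strand). Gpr179, an orphan receptor that anchors RGS proteins beside mGluR6, lies on the minus strand of chromosome 11 (97332109 to 97352077). These 4 genes, whose proteins sit together at the dendritic tip, are called the dendritic tip genes below as a short name. The name does not cover all proteins of the tip, since GPR179 anchors RGS proteins there too. Promoters of these 4 genes are shown because the genes moved together across the groups. Each sequence holds the 250 bases before a transcription start in RefSeq (GRCm38.p6), written along the gene's own strand, and capitals mark matches to the 2 motifs described after them.

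Grm6 (chr11:50850435-50850684, plus strand): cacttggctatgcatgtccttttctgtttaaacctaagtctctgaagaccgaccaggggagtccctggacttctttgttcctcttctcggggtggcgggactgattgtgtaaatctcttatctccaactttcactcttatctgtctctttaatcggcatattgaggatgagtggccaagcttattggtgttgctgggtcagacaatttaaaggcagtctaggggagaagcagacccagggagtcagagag
Trpm1, first of 2 windows (chr7:64153585-64153834, plus strand): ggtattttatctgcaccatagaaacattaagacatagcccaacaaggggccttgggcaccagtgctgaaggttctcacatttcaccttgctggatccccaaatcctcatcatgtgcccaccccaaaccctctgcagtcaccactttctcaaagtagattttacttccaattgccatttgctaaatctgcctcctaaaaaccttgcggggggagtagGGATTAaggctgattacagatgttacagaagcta
Nyx (chrX:13460840-13461089, plus strand): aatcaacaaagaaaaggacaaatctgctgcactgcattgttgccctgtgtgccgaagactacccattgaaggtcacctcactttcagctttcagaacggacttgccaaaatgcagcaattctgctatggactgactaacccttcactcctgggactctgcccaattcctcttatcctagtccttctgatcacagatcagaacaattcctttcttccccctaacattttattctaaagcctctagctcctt
Gpr179 (chr11:97352357-97352606, minus strand): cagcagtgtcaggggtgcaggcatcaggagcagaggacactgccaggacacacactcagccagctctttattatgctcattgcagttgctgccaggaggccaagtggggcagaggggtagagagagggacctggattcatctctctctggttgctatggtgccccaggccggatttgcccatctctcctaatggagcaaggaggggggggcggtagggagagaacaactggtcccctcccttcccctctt

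The windows were searched on both strands for TAATCC, which reads GGATTA on the other strand and is the core bound by OTX2 and CRX, and for TAATTA, a palindrome bound by many homeodomain proteins. TAATCC was present in 6.25% and TAATTA in 4.84% of all 32841 such promoter windows in the table. RefSeq windows were found for 9 of the 10 members, 14 windows in all, while Rgs11 had none. Among the dendritic tip genes the only match was GGATTA in the first Trpm1 window, 34 to 29 bases before the start. Among the others, TAATTA was present in 1 of 4 Pcp2 windows, 101 to 96 bases before the start. The remaining windows held neither motif, which says only that these letters are not in these 250 bases. The RefSeq starts of Nyx and Gpr179 lie upstream of the GENCODE gene starts given above.

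The other 6 members act inside the cell. Gnao1 encodes the alpha subunit of Go (chromosome 8, 93809966 to 93969388, plus strand) and Gng13 a G protein gamma subunit (chromosome 17, 25717171 to 25719406, plus strand). Rgs7 (chromosome 1, 175059087 to 175492500, minus strand) and Rgs11 (chromosome 17, 26202951 to 26211324, plus strand) encode the GTPase-activating proteins that switch Go off. Pcp2 (chromosome 8, 3623371 to 3625545, minus strand) encodes a modulator of Go, and Prkca (chromosome 11, 107933387 to 108343928, minus strand) encodes protein kinase C alpha. Gnao1 and Prkca are also expressed by other retinal neurons, and Trpm1 by pigment cells. Exons of Chtf18 cover 51.6% of the exon bases of Gng13 on the opposite strand, and exons of Pet100 cover 51.5% of those of Pcp2. The sources used here do not give the strand setting of the counting, and reads of these pairs cannot be told apart with certainty. Chtf18 was at 2.43 to 3.49 CPM and Pet100 at 7.24 to 9.39 CPM over the 11 libraries.

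Libraries held 19657030 to 28053367 counts, and each member had at least 727 counts in every library. Levels are given as CPM, a library's counts scaled to a common size after TMM, which corrects for composition. Pde6b was at 2231 and 2301 CPM in WT saline, 332 to 422 in rd10 saline and 991 to 1757 in rd10 GSK, and Kdm1a was at 83.2 to 105 CPM throughout. Marker lists followed the retinal label: the 10 rod markers summed to 63522 to 64893 CPM in WT saline, 8546 to 10446 in rd10 saline and 25646 to 49748 in rd10 GSK. A list of 11 lens genes gave 618 CPM for WT saline replicate 2, 6259 CPM for replicate 2 of rd10 GSK and at most 11.1 CPM in the other 9 libraries, with Lim2 at 0 everywhere. Xist, a female-specific RNA, did not exceed 0.338 CPM in 4 libraries (replicate 2 of WT GSK, replicate 2 of rd10 saline, replicates 1 and 3 of rd10 GSK) and reached at least 780 CPM in the other 7. The library of rd10 saline replicate 2 stood apart by transcript length: relative to the other rd10 saline libraries its median log2 difference was 0.13 for genes with up to 2000 exon bases and -0.19 for those over 9000. Each library is 1 animal, and WT saline has only 2. The p-values rest on a spread between animals estimated over all 11 libraries together, although the groups were not equally variable. Library pairs differed by a chi-square of counts per degree of freedom of 35.4 to 54 in rd10 GSK. It was 6.97 to 17.8 in rd10 saline, 3.97 to 7.5 in WT GSK and 4.73 in WT saline.

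Per kilobase of exon, levels in WT saline ran from Gng13 to Nyx. Gng13 was highest at 73 ± 2.04 CPM per kilobase (SD, n = 2), followed by Pcp2 at 65.3, Prkca at 56.4 and Gnao1 at 55.5, and the last pair overlapped. Grm6 followed at 33.1, Gpr179 at 25, Trpm1 at 18.7 and Rgs11 at 17.7 CPM per kilobase. Rgs7 at 8.04 and Nyx at 6.92 CPM per kilobase were lowest. In both rd10 groups Gnao1 took the second place, overlapping Pcp2, and Nyx stood above Rgs7, again with overlap. Gng13 was first in all 4 groups, and Grm6, Gpr179, Trpm1 and Rgs11 followed each other in that order after Gnao1, Pcp2 and Prkca.

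**Figure D1:**
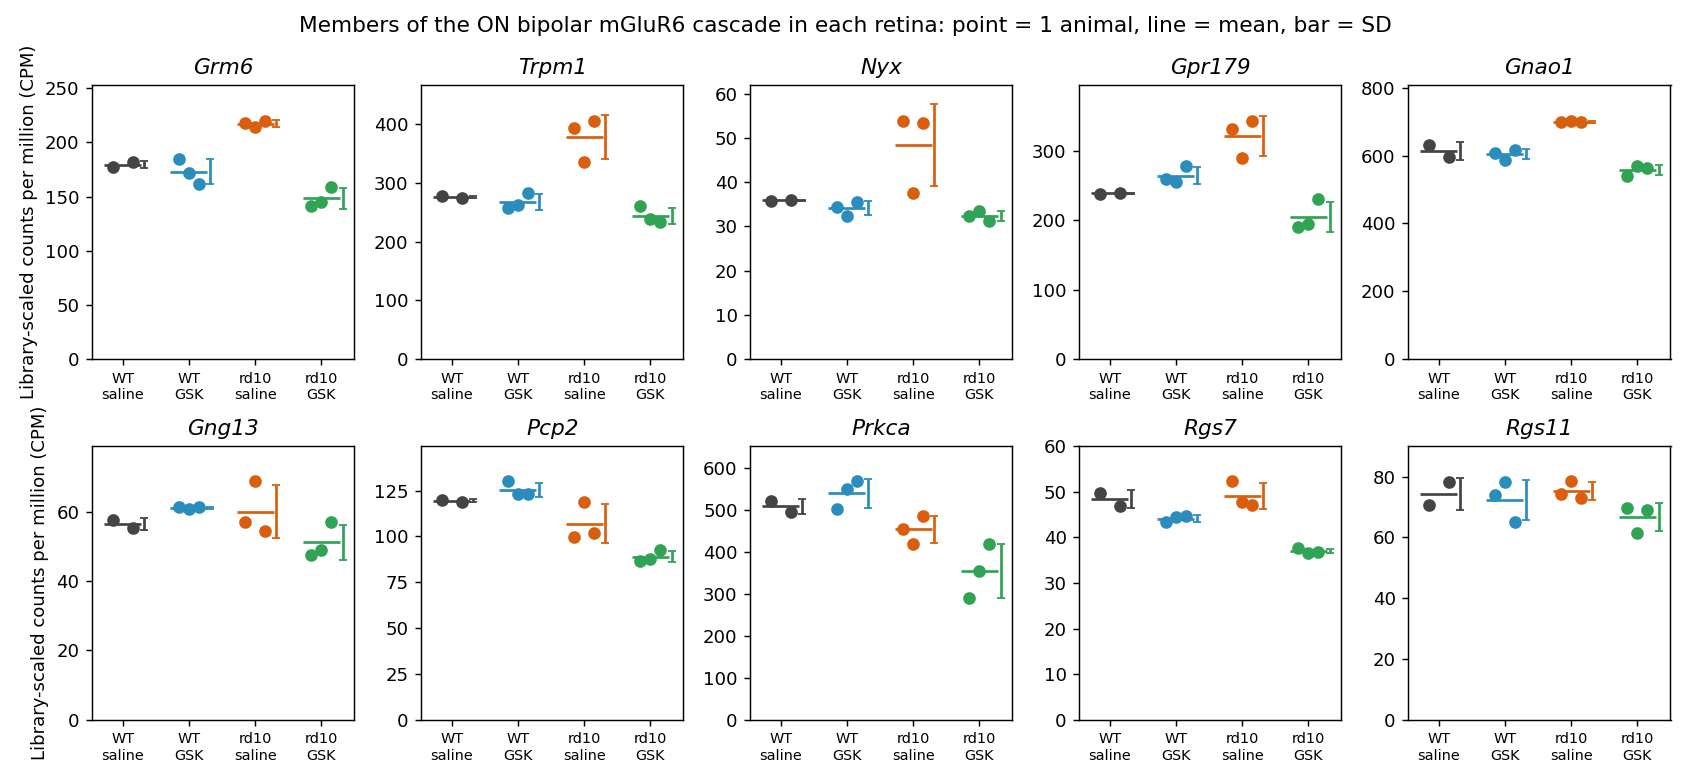
Library-scaled levels (CPM, linear axes from 0) of the 10 members in each retina, by group. Points are animals, lines are means and bars are SD (n = 2 for WT saline, n = 3 otherwise). The dendritic tip genes Grm6, Trpm1, Nyx and Gpr179 are highest in rd10 saline, and all 10 members have their lowest group mean in rd10 GSK.

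In rd10 retinas without drug, the dendritic tip genes and Gnao1 stood above WT saline. Trpm1 was at 277 and 275 CPM in WT saline and at 394, 335 and 406 CPM in rd10 saline replicates 1 to 3. Every rd10 library exceeded both wild-type libraries, with replicate 2 the lowest of the 3. The log2 fold change of Trpm1 was 0.45 ± 0.09 (SE, edgeR quasi-likelihood test, adjusted p = 0.00147), which is 1.37-fold. Gpr179 was at 238 and 239 CPM in WT saline and at 331, 289 and 343 CPM in rd10 saline. The difference was 0.43 ± 0.09 log2 (edgeR adjusted p = 0.00345). The share of all genes without overlap between the saline groups was not counted. Prkca, which was not called, did not overlap between them either. In bulk tissue a larger share of bipolar cells and more RNA per cell cannot be told apart.

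Grm6 was at 177 and 182 CPM in WT saline and at 218, 214 and 220 CPM in rd10 saline. The rd10 libraries lay within 6 CPM of each other and all above wild type (0.27 ± 0.07 log2, edgeR adjusted p = 0.00746). Nyx was at 35.8 and 36 CPM in WT saline and at 53.9, 37.6 and 53.4 CPM in rd10 saline. Replicate 2 was only slightly above wild type while the others were far above it, and the group difference was 0.43 ± 0.13 log2 (edgeR adjusted p = 0.0192). Gnao1, the Go alpha subunit, was at 632 and 595 CPM in WT saline and at 699, 703 and 698 CPM in rd10 saline. Its change was the smallest of those called (0.19 ± 0.06 log2, edgeR adjusted p = 0.0194).

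The remaining members were not called between the saline groups. Pcp2 was at 120 and 119 CPM in WT saline and at 99.9, 119 and 102 CPM in rd10 saline (-0.16 ± 0.07 log2, edgeR adjusted p = 0.105). Prkca was at 520 and 495 CPM in WT saline and at 454, 419 and 485 CPM in rd10 saline (-0.16 ± 0.13 log2, edgeR adjusted p = 0.324). Pcp2 and Prkca thus each had a lower mean in rd10, against the direction of the dendritic tip genes, but neither was called. Cabp5, a gene of rod and some cone bipolar cells described below, was higher (0.22 log2, edgeR adjusted p = 0.014). Gng13 was at 57.6 and 55.3 CPM in WT saline and at 57, 68.7 and 54.4 CPM in rd10 saline. Rgs7 was at 49.8 and 47 CPM against 52.3, 47.8 and 47.2 CPM, and Rgs11 at 70.7 and 78.1 CPM against 74.4, 78.4 and 72.8 CPM. These 3 genes overlapped between the groups and had log2 changes of 0.09, 0.02 and 0.01.

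In all, 5 of the 10 members were higher in rd10 saline than in WT saline and the other 5 were not called, where 21.5% of the 17099 tested genes were higher, 19.0% were lower and 40.5% were called in either direction. The median change of the members was 0.14 log2 against 0.02 for all genes. Several calls were lost when 1 library was left out. Leaving out a WT saline library also left fewer of all tested genes called. The estimates without a WT saline library were 0.252 log2 for Grm6 (without replicate 1) and 0.425 and 0.432 for Nyx (without replicates 1 and 2). For Gnao1 the estimate was 0.144 log2 without WT saline replicate 2. Without WT saline replicate 1, which leaves 1 wild-type control whose spread is then assumed from the other groups, Grm6 was not called (edgeR adjusted p = 0.0709). Gnao1 was not called without WT saline replicate 2 or rd10 saline replicate 1 (edgeR adjusted p = 0.185 and 0.0547). Nyx was not called without any one of the WT saline replicates or rd10 saline replicates 1 or 3 (edgeR adjusted p = 0.0683 to 0.1). Pcp2 became lower without rd10 saline replicate 2 (-0.25 log2, edgeR adjusted p = 0.00325). Trpm1 and Gpr179 were called whichever single library was left out.

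The rd10 saline replicate 2 differences by transcript length were visible within the members too. Relative to replicates 1 and 3, it was higher for the shortest members, by 0.30 log2 for Gng13 (773 exon bases) and 0.24 for Pcp2 (1828 exon bases). It was lower for long ones, by -0.25 log2 for Trpm1 (14746 exon bases), -0.22 for Gpr179 (9542) and -0.16 for Prkca (8992). Nyx, with 5183 exon bases, deviated most, at -0.51, while Gnao1, with 11053, did not deviate (0.01). In the group comparisons over all genes, the median change by length class stayed between -0.05 and 0.06 log2.

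**Figure D2:**
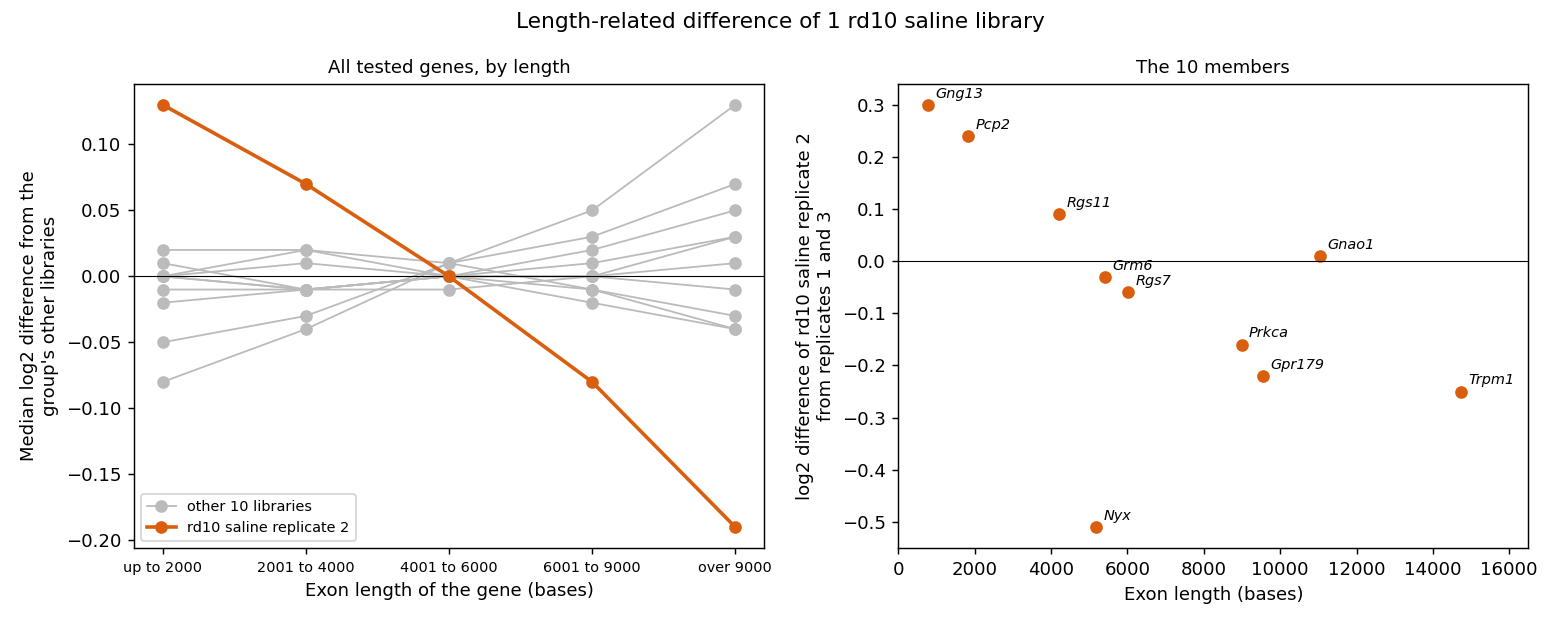
Left: median log2 difference of each library from the other libraries of its group, for tested genes in 5 classes of exon length (bases). Right: the log2 difference of rd10 saline replicate 2 from replicates 1 and 3 for the 10 members against exon length. The replicate falls from 0.13 in the shortest class to -0.19 in the longest, and Gng13 and Pcp2 lie above 0 while Nyx and Trpm1 lie below.

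With GSK2879552 in rd10, 8 of the 10 members fell and the other 2 were not called, where 15.2% of all genes were lower and 32.9% were called in either direction. Trpm1 was at 260, 238 and 233 CPM in rd10 GSK, below all rd10 saline libraries (335 to 406 CPM) and below WT saline. It fell by 0.64 ± 0.08 log2 (edgeR adjusted p = 0.000122), to 0.644 of its rd10 saline level. Gpr179 was at 190, 194 and 230 CPM, against 289 to 343 CPM in rd10 saline, and fell by 0.65 ± 0.08 log2 (edgeR adjusted p = 0.000176). The receptor gene Grm6 was at 141, 145 and 159 CPM, against 214 to 220 CPM, and fell by 0.55 ± 0.06 log2 (edgeR adjusted p = 6.76e-05). Nyx was at 32.4, 33.5 and 31.3 CPM, against 37.6 to 53.9 CPM, and fell by 0.58 ± 0.11 log2 (edgeR adjusted p = 0.00283). The treated and untreated rd10 libraries did not overlap for these genes, nor for 9 of the 10 members in all, where 42.7% of all tested genes did not overlap in this comparison.

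Among the intracellular members 4 fell. Rgs7 was at 37.6, 36.6 and 36.9 CPM in rd10 GSK, close together and below all the other 8 libraries, and fell by 0.41 ± 0.05 log2 (edgeR adjusted p = 0.000241). Gnao1 was at 541, 568 and 564 CPM and fell by 0.33 ± 0.05 log2 (edgeR adjusted p = 0.000603). Pcp2 was at 86.8, 87.8 and 92.4 CPM and fell by 0.26 ± 0.07 log2 (edgeR adjusted p = 0.00975). Prkca was the most variable, at 290, 353 and 418 CPM, with replicate 3 only just below the lowest rd10 saline library at 419 CPM. It fell by 0.36 ± 0.11 log2 (edgeR adjusted p = 0.0305), and this call was lost without rd10 saline replicate 1 or 3 or rd10 GSK replicate 1 or 2 (edgeR adjusted p = 0.0578 to 0.108).

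Gng13 and Rgs11 were not called. Gng13 was at 47.6, 48.8 and 56.9 CPM in rd10 GSK, overlapping rd10 saline (-0.23 ± 0.09 log2, edgeR adjusted p = 0.062). It was called lower without rd10 saline replicate 3 or rd10 GSK replicate 3 (edgeR adjusted p = 0.0364 and 0.0138). Rgs11 was at 69.5, 61.3 and 69.1 CPM, without overlap (-0.17 ± 0.08 log2, edgeR adjusted p = 0.0993). The median of the members was -0.38 log2 against 0.01 for all genes. This comparison and the one before it share the rd10 saline libraries, so an unusually high value there raises one change and lowers the other.

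**Figure D3:**
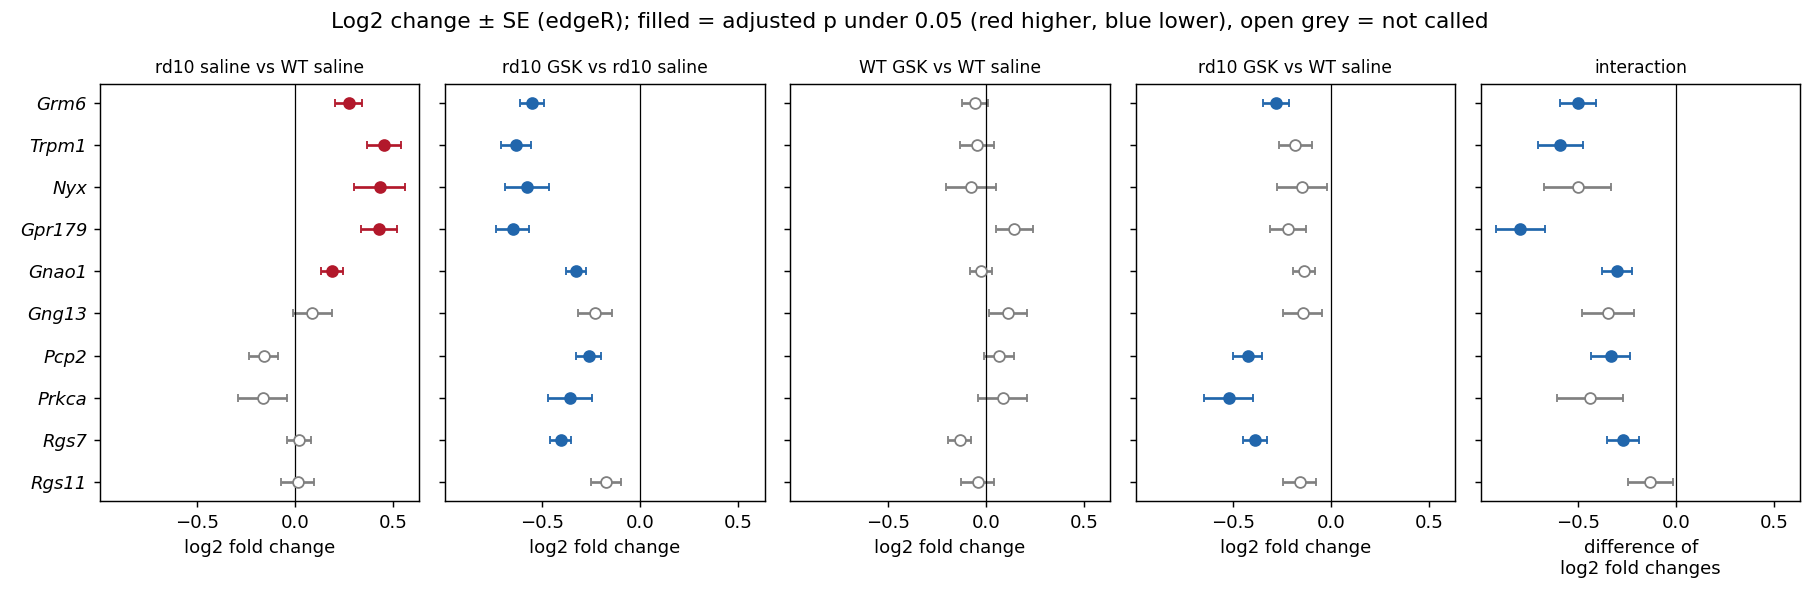
Log2 fold change ± SE of the 10 members in the 4 group comparisons, and the difference between the drug effects in rd10 and in wild type (interaction), from edgeR. Filled points have an adjusted p under 0.05, red higher and blue lower. The 4 dendritic tip genes move up in rd10 saline and down with the drug in rd10, and no member is called in wild type.

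In wild-type retinas no member was called by edgeR, where 0.532% of all genes were. Grm6 was at 185, 172 and 162 CPM in WT GSK, Trpm1 at 258, 262 and 283 CPM and Nyx at 34.4, 32.4 and 35.5 CPM. Gpr179 was at 259, 255 and 278 CPM (0.15 ± 0.09 log2, edgeR adjusted p = 0.76). Gnao1 was at 609, 587 and 616 CPM, Pcp2 at 130, 123 and 123 CPM and Prkca at 501, 548 and 567 CPM. The G protein gamma subunit gene Gng13 was at 61.2, 60.8 and 61.4 CPM. Among the RGS genes, Rgs7 was at 43.4, 44.4 and 44.7 CPM and Rgs11 at 73.8, 78.1 and 65.1 CPM. All WT GSK libraries lay below both WT saline libraries for Nyx and Rgs7, and above both for Gpr179, Gng13 and Pcp2. The share of all genes separated in this way was not counted.

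The count of 0 members in wild type by edgeR was also 0 by DESeq2 and by limma-voom. At an unadjusted p under 0.05, 1 member passed, Rgs7 (-0.13 ± 0.06 log2, edgeR adjusted p = 0.553). Member changes ran from -0.13 to 0.15 log2 with a median of -0.03. When only the wild-type groups were fitted, Gpr179 was called higher (0.15 log2, edgeR adjusted p = 0.0484), where 916 of 16230 genes were called. With 2 control animals and a spread shared with the more variable rd10 libraries, small changes in wild type are not shown to be absent.

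The drug effect differed between the genotypes for 6 members, all in the same direction, where 4.98% of all genes had a lower and 12.5% a differing drug effect in rd10. The difference (the log2 change with drug in rd10 minus that in wild type) was -0.80 ± 0.13 for Gpr179 (edgeR adjusted p = 0.00223), -0.59 ± 0.11 for Trpm1 (adjusted p = 0.00691) and -0.50 ± 0.09 for Grm6 (adjusted p = 0.00525). These 3 dendritic tip genes were called whichever single library was left out. Gnao1 (-0.30 ± 0.08, edgeR adjusted p = 0.0236), Pcp2 (-0.33 ± 0.10, adjusted p = 0.0487) and Rgs7 (-0.27 ± 0.08, adjusted p = 0.0488) passed by less. Gnao1 lost the call without WT saline replicate 1 or 2, WT GSK replicate 1 or 3, rd10 saline replicate 1 or rd10 GSK replicate 2 (edgeR adjusted p = 0.0527 to 0.13). Pcp2 lost it without either WT saline replicate, any WT GSK replicate, rd10 saline replicate 3 or rd10 GSK replicate 1 or 2 (edgeR adjusted p = 0.0514 to 0.157). Rgs7 held its call only without rd10 saline replicate 2 or rd10 GSK replicate 1 (edgeR adjusted p = 0.0565 to 0.213 without each of the others).

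The other 4 members were not called for this difference. Nyx had -0.50 ± 0.17 log2 (edgeR adjusted p = 0.0792) and was called without rd10 saline replicate 2 (-0.65 log2, adjusted p = 0.00118). Prkca had -0.44 ± 0.17 log2 (edgeR adjusted p = 0.114) and Gng13 -0.35 ± 0.13 (adjusted p = 0.111), and both were called without rd10 GSK replicate 3 (adjusted p = 0.0109 and 0.0324). Rgs11 had -0.13 ± 0.11 log2 (edgeR adjusted p = 0.501). The median over the 10 members was -0.39 log2 against 0 for all genes.

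Treated rd10 retinas did not stand at the wild-type level for every member. Against WT saline, 4 members were lower in rd10 GSK, where 10.3% of all genes were lower and 24.4% were called in either direction. Prkca was lower by -0.52 ± 0.12 log2 (edgeR adjusted p = 0.0123), Pcp2 by -0.42 ± 0.07 (adjusted p = 0.00259), Rgs7 by -0.39 ± 0.06 (adjusted p = 0.00158) and Grm6 by -0.28 ± 0.07 (adjusted p = 0.0125). The rod bipolar markers Prkca and Pcp2 were thus at 69.7% and 74.5% of their WT saline means. Trpm1 (-0.18 ± 0.09), Nyx (-0.15 ± 0.13) and Gpr179 (-0.22 ± 0.09) were not called, at 88.2%, 90.4% and 85.8% of WT saline. All 10 members had a mean below WT saline, with a median of -0.20 log2 against 0.01 for all genes. Without either WT saline replicate, Grm6 (edgeR adjusted p = 0.0729 and 0.0945) and Prkca (0.102 and 0.0584) were not called. Without rd10 GSK replicate 3, Gpr179 was called lower (-0.31 log2, edgeR adjusted p = 0.01).

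Leaving out both libraries with lens transcripts left WT saline with 1 animal and fewer calls. In rd10 saline against WT saline Trpm1 and Gpr179 were called, while Grm6 (edgeR adjusted p = 0.0652), Nyx (0.133) and Gnao1 (0.27) were not. With drug in rd10, 6 members remained lower, and Pcp2 (-0.24 log2, edgeR adjusted p = 0.0676) and Prkca (-0.34 log2, adjusted p = 0.115) lost the call. Only Gpr179 was then called for the difference between genotypes, and only Rgs7 for rd10 GSK against WT saline. Between the saline groups the estimate for Grm6 was 0.28 log2 without these libraries against 0.27 with them, and that for Gnao1 was 0.13 against 0.19. For the difference between genotypes, Rgs7 had -0.21 against -0.27.

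Because rod transcripts make up a large share of retinal RNA and differ between the groups, the changes were also measured relative to other inner retinal genes. Libraries were rescaled so that either 11 amacrine genes or 15 other bipolar genes (the list described below without Otx2) kept their median level. Relative to the other bipolar genes, rd10 saline exceeded WT saline only for Gpr179 (0.26 log2, edgeR adjusted p = 0.0335), while Pcp2 and Prkca were lower (both -0.34 log2, adjusted p = 0.00345 and 0.0232). In that comparison 2178 of the 17099 genes were higher and 5485 were lower, with a median of -0.15 log2. Grm6, Trpm1, Nyx and Gnao1 were not called on this scale (0.10, 0.28, 0.26 and 0.02 log2). With drug in rd10, Gpr179 (-0.29 log2, edgeR adjusted p = 0.00734), Trpm1 (-0.27, adjusted p = 0.0385) and Grm6 (-0.19, adjusted p = 0.0237) were lower also relative to the other bipolar genes. Nyx (-0.21 log2, edgeR adjusted p = 0.189) was not called, and the estimates for Gnao1 (0.04), Pcp2 (0.10), Gng13 (0.13) and Rgs11 (0.19) turned positive. Against WT saline, rd10 GSK was lower for Prkca (-0.34 log2) and Pcp2 (-0.23 log2) on this scale, while Grm6 (-0.09) and Rgs7 (-0.19) were no longer called.

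Relative to the amacrine genes, Grm6, Trpm1 and Gpr179 were higher in rd10 saline (0.21, 0.40 and 0.37 log2) and Pcp2 was lower (-0.22 log2). In that comparison 2778 of the 17099 genes were higher and 3715 were lower. With drug in rd10, Grm6 (-0.33 log2), Trpm1 (-0.41), Nyx (-0.36), Gpr179 (-0.43) and Rgs7 (-0.18) were lower on this scale. The genotype difference of the drug effect held for Gpr179 on both of these scales, for Grm6 only on the amacrine scale, and for Trpm1 on neither (edgeR adjusted p = 0.0707 on the amacrine scale and 0.331 on the bipolar scale). These rescalings moved the median of all genes with drug in rd10 to 0.23 (amacrine) and 0.37 log2 (other bipolar), against 0.01 with TMM. They moved it to -0.04 and -0.15 between the saline groups, to 0.14 and 0.40 for the difference between genotypes and to 0.17 and 0.20 for rd10 GSK against WT saline. Among all genes called between the saline groups, 53.0% were higher with TMM, 42.8% on the amacrine scale and 28.4% on the bipolar scale. With drug in rd10 the shares were 53.6%, 90.9% and 96.6%, in wild type 83.5%, 93.9% and 79.2%, for the difference between genotypes 60.1%, 88.5% and 98.0%, and for rd10 GSK against WT saline 57.8%, 88.8% and 90.9%.

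**Figure D4:**
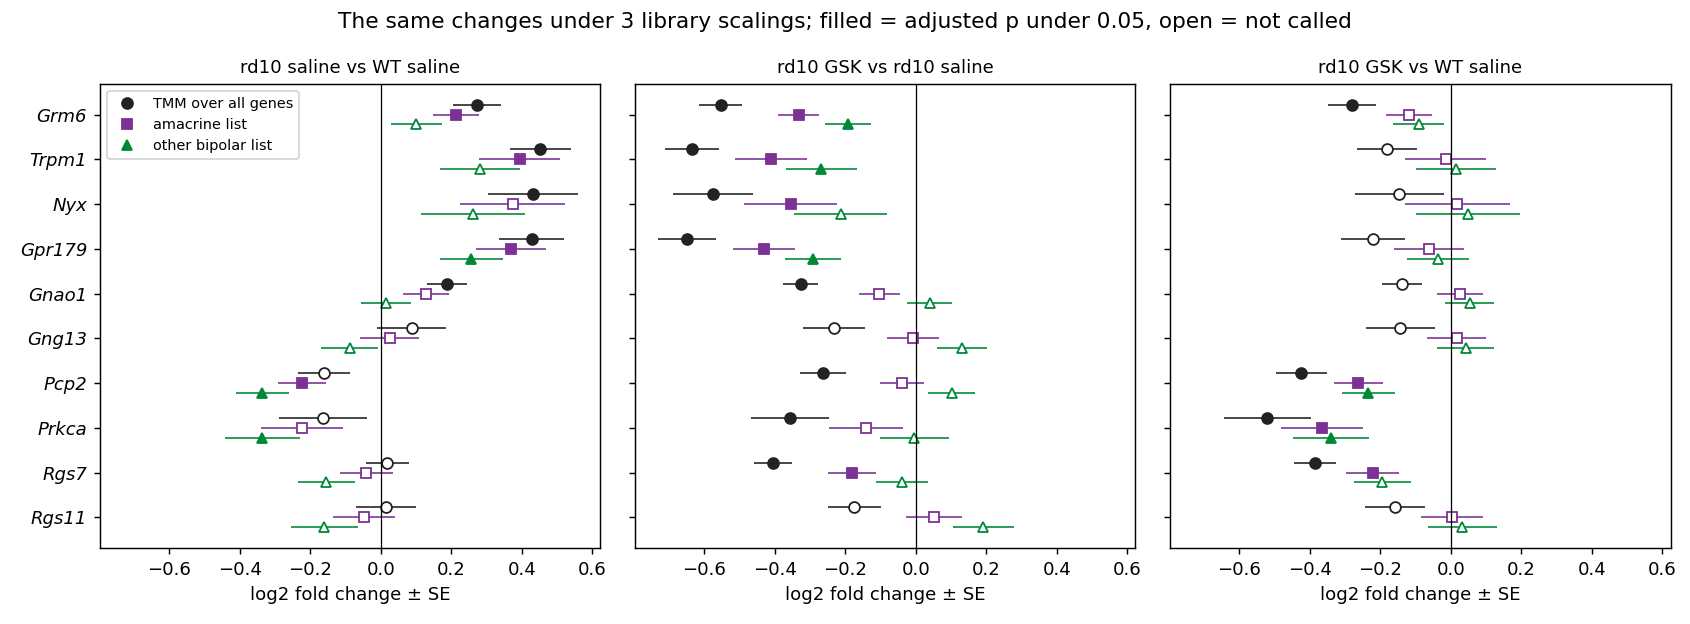
Log2 fold change ± SE of the 10 members under 3 ways of scaling the libraries: TMM over all genes (circles), the amacrine list (squares) and the other bipolar list (triangles). Filled symbols have an edgeR adjusted p under 0.05. With drug in rd10, Grm6, Trpm1 and Gpr179 are lower under all 3 scalings, while Gnao1 and Pcp2 move from below to above 0 on the other bipolar scale.

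As a level per library, the geometric mean of the 10 members was 113%, 108% and 113% of WT saline in rd10 saline and 80.9%, 81.9% and 87.5% in rd10 GSK. For the 4 dendritic tip genes it was 138%, 116% and 140% in rd10 saline and 85.4%, 85.2% and 89% in rd10 GSK. The 15 other bipolar genes stood at 112%, 117% and 110% in rd10 saline and 86.3%, 87.5% and 93.5% in rd10 GSK. Rod genes stood at 16.7%, 17% and 20.3% in rd10 saline and 39.8%, 59.6% and 77.5% in rd10 GSK. The treated library with the most rod transcript, replicate 3, also had the highest level of each bipolar summary. The same held for the amacrine genes (85.3%, 91.8% and 95.8% in rd10 GSK replicates 1 to 3). Replicates 1 and 2, at 39.8% and 59.6% for rods, were nearly level for the dendritic tip genes (85.4% and 85.2%). Whether the share of rod RNA accounts for the members' changes was not tested beyond the rescaling above.

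Other genes of the cascade were mixed. Over all genes, 21.5% were higher and 19.0% lower between the saline groups. With drug in rd10, 15.2% of all genes were lower and 32.9% were called in either direction. Of 7 matched genes of a list of further dendritic components, 2 were higher and 3 lower in rd10 saline than in WT saline (median -0.11 log2), and 4 were higher and 2 lower with drug in rd10 (median 0.81 log2). Gnb3, the G protein beta subunit used by ON bipolar cells and cones, was at 349 and 367 CPM in WT saline and at 707, 761 and 709 CPM in rd10 saline (1.02 ± 0.19 log2, edgeR adjusted p = 0.00218). It spread from 460 to 808 CPM in rd10 GSK and was not called there (-0.18 ± 0.16 log2, adjusted p = 0.435). Rgs6, related to Rgs7, was higher in rd10 saline (0.34 ± 0.11 log2, edgeR adjusted p = 0.0261) and lower with drug (-0.52 ± 0.10 log2, adjusted p = 0.00166).

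Gnb5, the beta subunit that partners RGS7 and RGS11, and Rgs9bp, which anchors RGS9, are also used by photoreceptors, and both ran the opposite way. Gnb5 was lower in rd10 saline (-1.18 ± 0.23 log2, edgeR adjusted p = 0.00317) and higher with drug (1.05 ± 0.21 log2, adjusted p = 0.00473). Rgs9bp went from 941 and 898 CPM in WT saline to 213, 180 and 250 CPM in rd10 saline and to 429, 612 and 728 CPM in rd10 GSK. Rgs20 changed alike, by -1.75 ± 0.14 and 1.51 ± 0.13 log2 (edgeR adjusted p = 9.11e-06 and 2.51e-05). Rgs7bp, the membrane anchor of RGS7, was lower with drug in rd10 (-0.50 ± 0.10 log2, edgeR adjusted p = 0.00225), as was Rgs7 itself. In wild type Rgs7bp was at 99.1 and 95 CPM with saline and at 75.9, 70.9 and 80.7 CPM with drug, but was not called.

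Cacna1s, a calcium channel subunit on the same list, had a pattern of its own. Its place in ON bipolar cells was not tested. It was at 22.3 and 23.9 CPM in WT saline, 29.8, 29.6 and 27.1 CPM in WT GSK, 21.9, 20.5 and 22.2 CPM in rd10 saline and 38.5, 35.6 and 38.8 CPM in rd10 GSK. Treated libraries were above untreated ones in both genotypes. The change with drug was 0.81 ± 0.07 log2 in rd10 (edgeR adjusted p = 1.22e-05) and 0.32 ± 0.08 log2 in wild type (adjusted p = 0.116), and the difference between them was 0.48 ± 0.10 log2 (adjusted p = 0.00994).

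Most partners on the photoreceptor side of the synapse changed in the opposite direction to the dendritic tip genes. Of 10 genes of the photoreceptor terminal, 9 were lower and 1 higher in rd10 saline (median -1.06 log2), and 8 were higher and 1 lower with drug in rd10 (median 0.69 log2). Over all genes, 19.0% were lower in rd10 saline and 32.9% were called in either direction with drug in rd10. Elfn1, the adhesion protein that binds mGluR6 across the cleft, was at 147 and 134 CPM in WT saline, 63.4, 55.4 and 66.6 CPM in rd10 saline and 118, 131 and 125 CPM in rd10 GSK. It was lower by -1.19 ± 0.08 log2 in rd10 saline (edgeR adjusted p = 1.95e-06) and higher by 1.01 ± 0.07 log2 with drug (adjusted p = 4.76e-06). Egflam, which encodes pikachurin, a ligand of dystroglycan, changed by -1.44 ± 0.11 and 1.16 ± 0.10 log2 (edgeR adjusted p = 3.47e-06 and 1.5e-05). Slc17a7, the vesicular glutamate transporter, changed by -1.32 ± 0.10 and 0.63 ± 0.09 log2 (adjusted p = 3.41e-06 and 0.00039). Dag1, which encodes dystroglycan and is also expressed by glia, was named after its values were seen, as the exception in both comparisons (0.60 ± 0.11 and -0.35 ± 0.10 log2, edgeR adjusted p = 0.00126 and 0.0155).

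**Figure D5:**
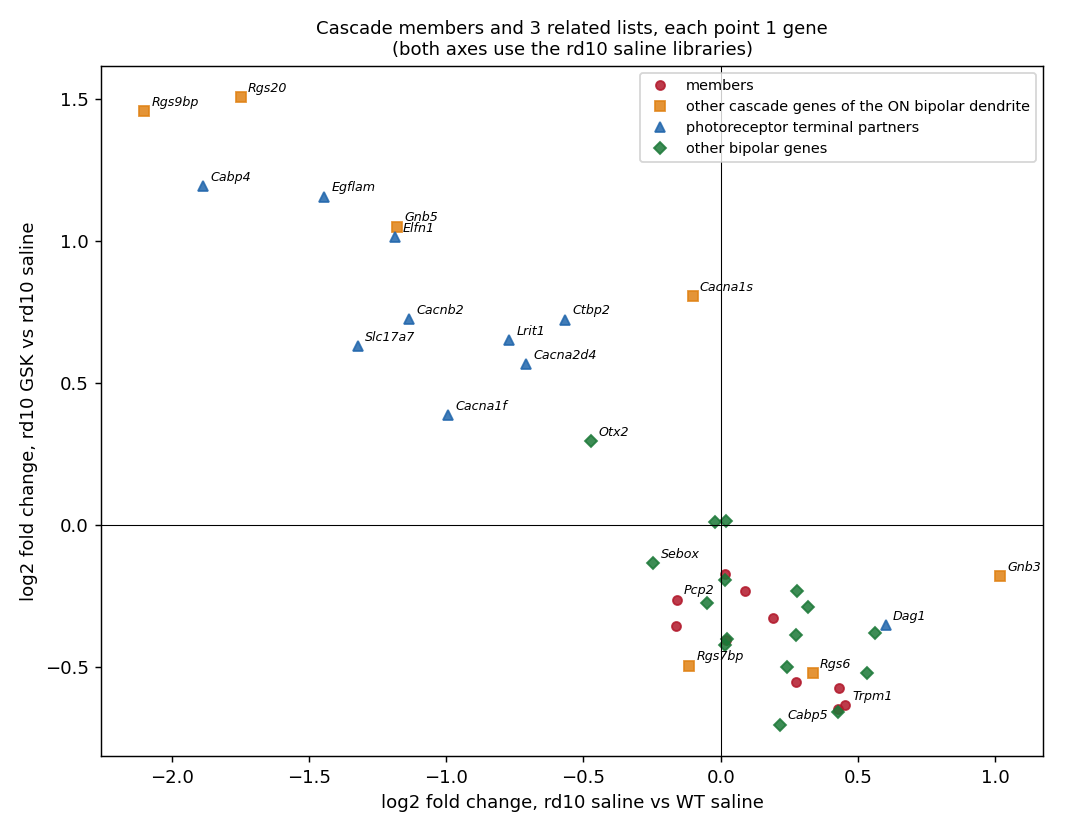
Log2 fold change of each gene between the saline groups (x axis) and with drug in rd10 (y axis) for the 10 members and 3 related lists. Both axes use the rd10 saline libraries, so the axes are not independent. Photoreceptor terminal genes lie mostly at upper left (Elfn1 at -1.19 and 1.01) and the members lie at or below a y value of -0.17.

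Of 16 genes that mark bipolar cells without belonging to the cascade, 8 were higher, 2 lower (Otx2 and, named after its values were seen, Sebox) and 6 not called in rd10 saline (median 0.12 log2), where 21.5% of all genes were higher. With drug in rd10, 11 were lower, 1 higher (Otx2) and 4 not called (median -0.33 log2), where 15.2% of all genes were lower. Isl1, a factor of ON bipolar cells among others, changed by 0.43 ± 0.06 and -0.66 ± 0.05 log2 (edgeR adjusted p = 0.000174 and 8.07e-06). Cabp5, a calcium-binding protein of rod and some cone bipolar cells, changed by 0.22 ± 0.06 and -0.70 ± 0.06 log2 (edgeR adjusted p = 0.014 and 7.31e-06). Grik1, a kainate receptor of OFF bipolar cells, changed by 0.56 ± 0.10 and -0.38 ± 0.09 log2 (edgeR adjusted p = 0.000866 and 0.00562). Otx2, which photoreceptors express too, changed in the opposite direction (-0.47 ± 0.08 and 0.30 ± 0.07 log2, adjusted p = 0.000472 and 0.00587). With the drug in wild type, the changes ran from -0.11 to 0.16 log2 in this list, from -0.12 to 0.09 in the photoreceptor terminal list and from -0.36 to 0.32 in the cascade list.

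Pigment cells also express Trpm1, and a dissected retina can carry some of them. Of 11 pigment cell markers, 0 were called by edgeR between the saline groups (2 at an unadjusted p under 0.05, 1 called by DESeq2, 0 by limma-voom) and 0 with drug in rd10 (3 unadjusted, 2 by DESeq2, 0 by limma-voom). Their median change was -0.62 log2 between the saline groups (range -2 to 0.58) and 1.11 log2 with drug in rd10 (range 0.15 to 2.52). They summed to 88.9 and 203 CPM in WT saline, 221 to 292 in WT GSK, 49.3 to 121 in rd10 saline and 116 to 163 in rd10 GSK, and none was at 0. The sums of the saline groups overlapped, as did those of the rd10 groups, and their part in the level of Trpm1 was not tested.

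With drug in rd10, where 15.2% of all genes were lower, markers of several other cell types were also lower. By edgeR these were 5 of 6 tested ganglion cell markers (median -0.31 log2), 5 of 6 Mueller glia markers (median -0.73), 5 of 11 amacrine markers (median -0.19), 4 of 9 cone markers (median -0.34), 2 of 4 horizontal cell markers (median -0.44) and all 10 microglial markers (median -1.46). Between the saline groups, where 21.5% of all genes were higher, 4 of 6 Mueller glia and all 10 microglial markers were higher. Near that share, 2 of 11 amacrine and 1 of 4 horizontal markers were higher between these groups. Median changes of the cone and ganglion lists there were -0.10 and -0.04 log2. The members' own median with drug in rd10 was -0.38 log2, and the part of these cell types in the members' changes was not tested.

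Among themselves the members correlated to different degrees over the 11 libraries. As a description, the Pearson correlations of log2 CPM among Grm6, Trpm1, Nyx and Gpr179 ran from 0.79 to 0.95, and those of Gnao1 with them from 0.82 to 0.94. Pcp2 and Prkca correlated with each other at 0.82, and Pcp2 with Gng13 at 0.78. With the dendritic tip genes, Pcp2 ran from -0.06 (Nyx) to 0.41 (Grm6) and Prkca from 0.19 (Nyx) to 0.59 (Gpr179). Against the mean of the 4 dendritic tip genes, Rgs7 had r = 0.79, Rgs11 0.45, Prkca 0.38, Gng13 0.37 and Pcp2 0.21. Libraries of a group share genotype and treatment, so these values also hold the differences between groups.

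The genes whose pattern was most like the mean of the dendritic tip genes were sought among 12021 others with a mean of at least 5 CPM. The 8 closest over the 11 libraries were Adam22 (r = 0.986), Cntn1 (0.983), Pid1 (0.98), Sphkap (0.979), Kif5c (0.979), St8sia3 (0.974), Gpr37 (0.973) and Epha4 (0.973). Their log2 changes ran from 0.23 (Kif5c) to 0.74 (Gpr37) between the saline groups and from -0.35 (St8sia3) to -1.16 (Gpr37) with drug in rd10. None of the 8 was on a bipolar list. The closest of the other bipolar genes were Isl1 at 0.94 and Bhlhe22 at 0.90.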

How the data were processed

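RNA from 11 mouse retinas was analysed from 1 table of raw read counts per gene, which the authors deposited as whole numbers for 37991 Ensembl identifiers. Per the submitters' processing notes, bcl2fastq, HISAT2 2.1.0, HTSeq and edgeR were used, and NCBIM37 and mm9 are the builds named. Neither the annotation nor the version and strand setting of HTSeq is given in the sources used here. Per the labels' protocols, polyA RNA went into stranded libraries. The members and gene lists were chosen with earlier results of these data known. Identifiers were named from GENCODE M21 (GRCm38), which matched 32919 and left 5072 unnamed (0.627% of counts). Lrit3 of the cascade list was not matched.

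Genes were kept by filterByExpr (min.count 10, min.total.count 15), scaled by TMM and fitted in edgeR 4.0.16 (R 4.3.3) with 1 coefficient per group over all 11 libraries. Robust quasi-likelihood F-tests were adjusted by Benjamini-Hochberg over 17099 genes, and a gene was called at an adjusted p under 0.05. The biological coefficient of variation (common) was 0.129. SE is the absolute log2 fold change divided by the square root of F. Genes outside the members were named where called between the saline groups or with drug in rd10, up to 6 per list and comparison by smallest p; 1 gene that the rule would name is not reported here. Likeness used r over the libraries with the mean centred log2 CPM (offset 0.5 CPM) of Grm6, Trpm1, Nyx and Gpr179. Alternatives were DESeq2 1.42.0, its size factors, limma 3.58.1 voom, no filter, only the compared groups, a replicate block, an Xist covariate, 2 list scalings and leaving out libraries. Reads were not analysed.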

Additional observations from a re-analysis of the deposited data

Results flagged for a closer look

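The effect of the drug on 6 members differed between rd10 and wild-type retinas by a test of the difference itself (edgeR quasi-likelihood test of the genotype by treatment term, n = 11 libraries). The log2 change with GSK2879552 in rd10 minus that in wild type was -0.50 ± 0.09 for Grm6 (adjusted p = 0.00525), -0.59 ± 0.11 for Trpm1 (adjusted p = 0.00691) and -0.80 ± 0.13 for Gpr179 (adjusted p = 0.00223). It was -0.30 ± 0.08 for Gnao1 (adjusted p = 0.0236), -0.33 ± 0.10 for Pcp2 (adjusted p = 0.0487) and -0.27 ± 0.08 for Rgs7 (adjusted p = 0.0488). Over all 17099 genes, 12.5% passed the same test. Over 20 alternatives the Gpr179 difference kept its call in 20, Grm6 in 18, Trpm1 in 17, Gnao1 in 10, Pcp2 in 7 and Rgs7 in 2, among them settings that each leave out 1 library.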

How the results depend on the processing

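With DESeq2 size factors and with no filter on low counts, the counts of members called stayed within 1.5 times those reported. Fitting only the compared groups gave 3 members called between the saline groups, 1 in wild type (Gpr179) and 2 in rd10 GSK against WT saline. Over all genes, this setting called 6771 between the saline groups, 916 in wild type, 3588 with drug in rd10 and 1573 in rd10 GSK against WT saline. It cannot be applied to the difference between genotypes, which uses all groups. On the other bipolar scale 3 members were called between the saline groups, 3 with drug in rd10, 1 for the difference between genotypes and 2 for rd10 GSK against WT saline. There, 7663 of the 17099 genes were called between the saline groups and 9750 with drug in rd10. For the difference 7227 were called, and 4770 for rd10 GSK against WT saline. On the amacrine scale 5 members were called with drug in rd10 and 2 for the difference, where 7376 and 2630 of the 17099 genes were called. On the other bipolar scale the change with drug in rd10 became 0.039 for Gnao1 and 0.102 for Pcp2, and the difference between genotypes became 0.092 for Gnao1, 0.063 for Pcp2 and 0.123 for Rgs7; the rescaling itself adds a constant to each gene's change.

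Without the lens-bearing libraries 2, 1 and 1 members were called between the saline groups, for the difference between genotypes and for rd10 GSK against WT saline, with 4081, 524 and 726 genes called, and 12 genes in wild type. The count of genes called in wild type (91) was 193 with DESeq2, 52 with limma-voom and 54 with the Xist covariate. With that covariate Gng13 and Rgs11 were also called lower with drug in rd10 and Prkca was not (edgeR adjusted p = 0.0279, 0.0202 and 0.0612). For the difference between genotypes, Nyx was then called (-0.489 log2, edgeR adjusted p = 0.0331) and Rgs7 was not (adjusted p = 0.0624). Rgs11 was also called lower in rd10 GSK against WT saline (edgeR adjusted p = 0.0406). Same-numbered libraries of different groups share only a number: over 15 pairs their deviations correlated with a median r of 0.05, and 5 pairs exceeded 0.1. With the replicate block, 3 members were called for the difference between genotypes (Gnao1, Pcp2 and Rgs7 were not), where 1866 of all genes were. In wild type 38 genes were called with it.

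Leaving out each replicate in turn gave 3 to 6 members (4435 to 7506 genes) between the saline groups, 7 to 9 (4359 to 6346) with drug in rd10, 0 (12 to 182 genes) in wild type, 3 to 7 (864 to 3139) for the difference, and 2 to 5 (1053 to 5319) for rd10 GSK against WT saline. The wild-type control group of 2 animals limits the comparisons that use it. Lowest gene counts there came without WT saline replicate 1.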

Other observations

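Nyx is X-linked, and its level was set beside that of Xist in each library after its values were seen. In rd10 saline, replicate 2 had Xist at 0.0462 CPM and Nyx at 37.6 CPM, while replicates 1 and 3 had Xist at 986 and 1335 CPM and Nyx at 53.9 and 53.4 CPM. In rd10 GSK, replicates 1 and 3 had Xist at 0.0771 and 0.171 CPM and Nyx at 32.4 and 31.3 CPM, and replicate 2 had Xist at 780 CPM and Nyx at 33.5 CPM. In WT GSK, replicate 2 had Xist at 0.338 CPM and Nyx at 32.4 CPM, and replicates 1 and 3 had Xist at 911 and 944 CPM and Nyx at 34.4 and 35.5 CPM. Within each of these groups the libraries low in Xist had the lowest Nyx, by a wide margin only in rd10 saline. That library is also the one that stood apart by transcript length.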
